A study of Homo sapiens with 2 samples.

Results

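The 42 genes described here encode proteins of mitosis and of the mitotic spindle, from the cyclins that start mitosis to the motors that divide the cell. They were listed by name, and each was represented by its probe set with the highest mean log2 signal among the probe sets annotated to this gene alone. All 42 genes had such a probe set, all 42 passed the signal filter, and they are 42 of 11794 measured genes. RNA came from L-428 cells, an established Hodgkin lymphoma (HL) cell line. For 1 array RNA was taken from L-428 cells stably transfected with the vector pcDNA6.2-GW/EmGFP-miR-PRAME, which suppresses PRAME by RNA interference, and for the other from cells with the empty vector pcDNA6.2-GW/EmGFP-miR-neg. Both vectors carry EmGFP, a green fluorescent protein, and the transfectants were selected with blasticidin. Whether they were a pool or a clone is not given in the sources used here. The labels of both samples name L-428, whereas the design text of the series gives the line L-540 and another array type.

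PRAME itself had a signal of 1251 in the knock-down cells and 2115 in the control cells (log2 ratio -0.80), so the targeted RNA was reduced but not lost. Signals are MAS5 intensities as deposited. Log2 ratios are knock-down over control, centered on the median of the probe sets above the filter. The trimmed mean signal was 500.1 on both arrays and the median signal was 109.9 in the knock-down cells and 91.9 in the control cells. The ratio of 3' to 5' signal, a sign of RNA quality, was 1.04 in knock-down and 0.948 in control cells for GAPDH, and 1.17 in knock-down and 1.14 in control cells for ACTB. Of 10 markers of Hodgkin cells 9 passed the filter, among them the CD30 gene TNFRSF8 with a signal of 1667 in knock-down and 1893 in control cells. Their log2 ratios lay between -0.74 for CD40 and 0.25 for IRF4, with -0.63 for FUT4 and -0.23 for TNFRSF8. The probe sets of CD40 and FUT4 ranged up to 0.66 and 0.36. Of 6 B cell markers with a probe set 4 passed the filter, with a summed signal of all 6 of 932 in knock-down and 676 in control cells. CD79A had 332 in knock-down and 178 in control cells (log2 ratio 0.85), and the others above the filter had log2 ratios from 0.05 (CD22) to 0.44 (MS4A1). None of 6 T cell markers with a probe set passed the filter (sums of 381 in knock-down and 277 in control cells). Of 5 myeloid markers 1 did (ITGAM, sums of 320.0 in knock-down and 265 in control cells). The T cell and myeloid sums are uncentered signals of markers mostly below the filter, in cultures of 1 cell line. The median of all signals was also higher in the knock-down cells. What lies behind the marker sums was not tested. With 1 array per condition no test against a spread between cultures was possible, no p-value is given, and differences are described by thresholds of 1.25-fold and 1.5-fold.

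Cells enter mitosis when the kinase CDK1, bound to cyclin B, becomes active. Mitotic kinases, kinesin motors and microtubule-binding proteins then build the spindle, and the spindle checkpoint delays anaphase until every kinetochore, the protein complex on the centromere, is attached. Anaphase begins when the anaphase-promoting complex (APC/C) with its activator CDC20 marks securin and the cyclins for degradation. The RNAs of most of these proteins are made in G2 and mitosis, so that their level in a culture also depends on how many of its cells are in these phases. On a bulk array a smaller share of mitotic cells and less RNA per cell cannot be told apart.

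None of the 42 mitosis and spindle genes differed by 1.5-fold or more between PRAME knock-down cells and control cells. At this threshold 5.42% of the 11794 measured genes were lower and 7.54% were higher. The log2 ratios of the 42 genes lay between -0.47 (KIF4A) and 0.37 (CENPA), and 31 of them (73.8%) differed by less than 1.25-fold, as did 63.9% of all genes. The median log2 ratio was -0.10, and 26 of the 42 genes had a ratio below 0 (61.9%, against 51.0% of all genes). The spread between the genes, measured as the interquartile range of the log2 ratios, was 0.40 for these genes and 0.46 for all genes. KIF4A was not at the edge of the array, since 9.15% of all genes had a lower log2 ratio, and 15.9% had a higher ratio than CENPA.

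The share of genes past a threshold on these arrays depended on the signal. The mean signals of the 42 genes ranged from 205 to 11229. Of 9382 other genes within this range, 5.55% were lower by 1.5-fold or more and 4.16% were higher, and their median log2 ratio was -0.05. Between the quartiles of the members' signals (1703 to 5321) there were 2574 other genes. Of these, 4.51% were lower by 1.5-fold or more and 1.75% higher, their median was -0.08 and 62.4% of them had a ratio below 0. The 20 mitosis and spindle genes in this narrower range had a median of -0.12, with 14 below 0. The median of the list below 0 was thus close to that of other genes with like signals.

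**Figure D1:**
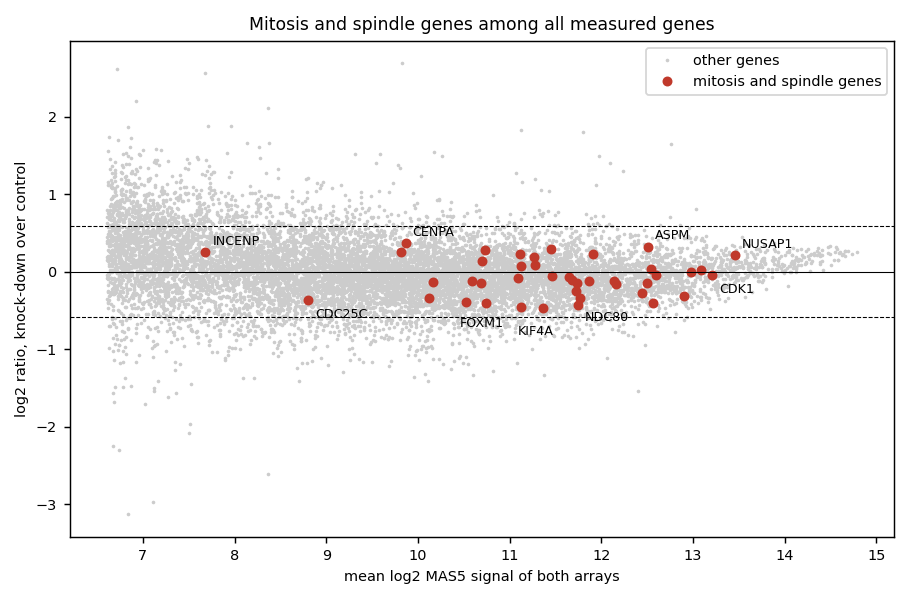
Log2 ratio of knock-down over control cells (vertical axis) against the mean of the log2 signals of both conditions (horizontal axis), 1 point per gene and 1 array per condition. The 42 mitosis and spindle genes (red) lie between -0.47 for KIF4A and 0.37 for CENPA, inside the dashed lines at 1.5-fold, and other genes are grey.

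Promoters of mitotic genes are known for a short element called CHR (cell cycle genes homology region), which is bound by the MuvB complex together with B-MYB or FOXM1 and often stands near a CCAAT box, the site of the factor NF-Y. RefSeq promoter windows (GRCh38.p14, 250 bases before to 50 bases after a gene's start) were found for 36 of the 42 genes and not for AURKA, BUB3, TTK, UBE2C, TPX2 and FOXM1. The letters TTTGAA or TTCGAA were taken as CHR and CCAAT as the CCAAT box, each on both strands, and a gene counted if at least 1 of its windows held the letters. CHR letters were found in 27 of the 36 genes (75%) and in 19.5% of the 27269 other genes with a window. A CHR match within 50 bases of the start was present in 24 of the 36 genes (66.7%) and in 6.16% of the others. CCAAT was found in 30 of the 36 (83.3%, against 39.7%), and both motifs in 24 (66.7%, against 7.77%). The other genes include noncoding ones, and a match is a description of the letters, not of binding.

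The ratios of genes with and without these letters overlapped. The 27 genes with CHR letters had a median log2 ratio of -0.04, with 15 below 0 and 12 above, and the 9 genes without them had a median of -0.05, with 5 below and 4 above. For CCAAT the median was -0.04 in the 30 genes with the letters (16 below 0) and -0.12 in the 6 without them (4 below), and for both motifs together it was -0.04 in 24 genes and -0.08 in 12. The brightest probe set was below 0 in all 6 genes without a window, but other probe sets of AURKA and BUB3 were above 0. The last 100 bases before the start are printed for 4 genes whose brightest probe set was below 0 and 4 whose brightest probe set was above 0, to show the letters of both motifs near the starts of such genes. The distance between the motifs and their order differ between the genes. These 8 were chosen after their values were seen, and the probe sets of ESPL1 and KIF23 lay on both sides of 0. Capitals mark TTTGAA and the CCAAT box, which reads ATTGG where it lies on the other strand. In CDCA8 the CHR match and an ATTGG share letters.
KIF4A (chrX:70290004-70290103, plus strand, log2 ratio -0.47): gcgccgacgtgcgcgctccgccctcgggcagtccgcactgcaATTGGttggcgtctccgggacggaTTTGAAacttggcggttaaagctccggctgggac
ESPL1 (chr12:53268199-53268298, plus strand, log2 ratio -0.41): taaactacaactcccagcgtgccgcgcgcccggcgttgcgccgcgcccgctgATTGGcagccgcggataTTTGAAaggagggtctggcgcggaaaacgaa
KIF23 (chr15:69414249-69414348, plus strand, log2 ratio -0.14): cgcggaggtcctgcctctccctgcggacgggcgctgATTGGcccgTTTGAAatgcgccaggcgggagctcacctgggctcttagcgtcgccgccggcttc
CCNB2 (chr15:59105046-59105145, plus strand, log2 ratio -0.15): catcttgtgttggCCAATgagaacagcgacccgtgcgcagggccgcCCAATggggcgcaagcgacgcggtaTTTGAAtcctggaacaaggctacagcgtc
PRC1 (chr15:90994536-90994635, minus strand, log2 ratio 0.23): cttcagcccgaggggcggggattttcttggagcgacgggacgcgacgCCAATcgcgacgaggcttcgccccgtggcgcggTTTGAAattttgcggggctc
PLK1 (chr16:23678789-23678888, plus strand, log2 ratio 0.26): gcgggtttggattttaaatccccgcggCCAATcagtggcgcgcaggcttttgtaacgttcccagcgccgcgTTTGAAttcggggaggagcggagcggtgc
CDCA8 (chr1:37692416-37692515, plus strand, log2 ratio 0.23): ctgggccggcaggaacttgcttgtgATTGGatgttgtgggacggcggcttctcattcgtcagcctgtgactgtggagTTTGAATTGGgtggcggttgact
CDC20 (chr1:43358881-43358980, plus strand, log2 ratio 0.29): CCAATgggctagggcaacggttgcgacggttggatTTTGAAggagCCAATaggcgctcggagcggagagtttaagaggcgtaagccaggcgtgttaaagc

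Most genes that start mitosis had similar signals in both conditions. CDK1, the kinase that drives mitotic entry, had a signal of 9501 in the knock-down cells and 9459 in the control cells (log2 ratio -0.04). Its 3 other probe sets had log2 ratios of -0.04, -0.15 and -0.41, the last with the dim 231534_at. CCNB1 had 2597 in knock-down and 2364 in control cells (0.09) in its brightest probe set and a log2 ratio of -0.12 in the other, so that its direction was not settled. CCNB2 had 4417 in knock-down and 4758 in control cells (-0.15). The signal of CCNA2, the cyclin of S phase and early mitosis, was 3210.0 in knock-down and 3363 in control cells (-0.11, and -0.29 in its other probe set). CKS2, a small subunit that binds CDK1, had 6198 in knock-down and 6191 in control cells (-0.04). With the brightest probe sets these 5 genes differed by less than 1.25-fold.
The phosphatases that remove the inhibitory phosphates from CDK1 were the exceptions in this group. CDC25B had a signal of 1307 in knock-down and 1656 in control cells (log2 ratio -0.39). CDC25C had 398 in knock-down and 497 in control cells (-0.37), but its other probe set above the filter, 217010_s_at, had 165 in knock-down and 117 in control cells (0.45). The direction of CDC25C therefore depended on the probe set, and CDC25B was measured by 1 probe set. As a group the 7 genes had a median of -0.11, with 6 below 0.

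**Figure D2:**
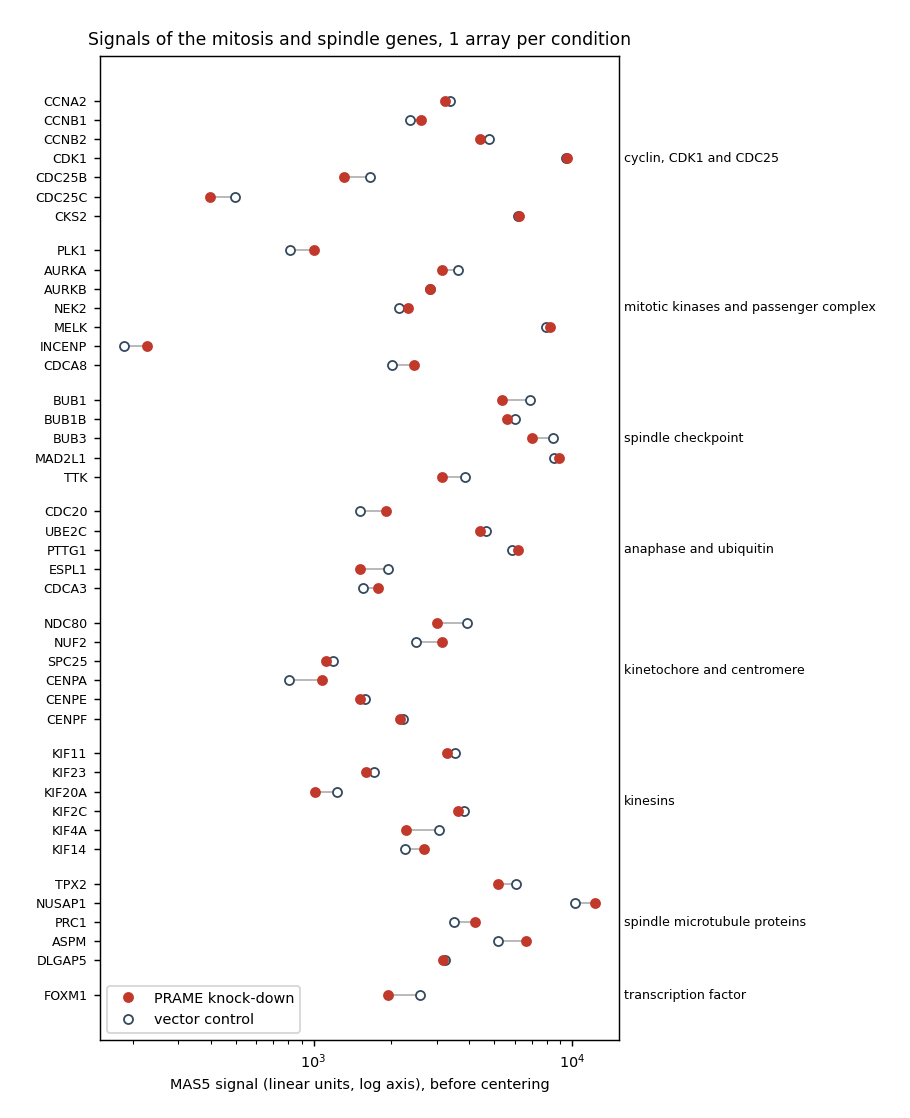
MAS5 signal (horizontal log axis) of the 42 mitosis and spindle genes in PRAME knock-down cells (red) and vector control cells (open circles), 1 array per condition, grouped by role. The lines join both conditions of a gene, and no line is as long as 1.5-fold after centering; CDK1, CKS2 and DLGAP5 have almost coinciding points.

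Mitotic kinases and their partners showed small differences, and with their brightest probe sets all 7 genes differed by less than 1.25-fold. Their median was then 0.07, with 2 below 0. It was 0.24 with the median over the probe sets of each gene, with none below 0. PLK1, a kinase of centrosome maturation and mitotic entry, had a signal of 1004 in the knock-down cells and 812 in the control cells (log2 ratio 0.26). AURKA, the kinase of the spindle poles, had 3149 in knock-down and 3619 in control cells (-0.25) in its brightest probe set, whereas its 2 others had log2 ratios of 0.11 and 0.07. Its direction was thus not settled. NEK2, which separates the centrosomes, had 2318 in knock-down and 2136 in control cells (0.07) and 0.40 in the other probe set. MELK, a kinase expressed in proliferating cells, had 8200.3 in knock-down and 7940.4 in control cells, the ratio nearest to 0 of all 42 genes.
The chromosomal passenger complex corrects wrong attachments of chromosomes to the spindle and consists of the kinase AURKB, the scaffold INCENP, CDCA8 (borealin) and BIRC5 (survivin). AURKB had a signal of 2812 in knock-down and 2828 in control cells (log2 ratio -0.05). INCENP had 227 in knock-down and 184 in control cells (0.26), the lowest signals of the 42 genes. CDCA8 had 2436 in knock-down and 2017 in control cells (0.23). BIRC5, which was not in the list of 42, had 6002 in knock-down and 5542 in control cells (0.07), with ratios from -0.43 to 0.31 in its 4 probe sets. For AURKB, 239219_at had 306 in knock-down and 201 in control cells (0.56), far from the ratio of its brightest probe set.

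The spindle checkpoint genes had a median of -0.32 over 5 genes, with 4 below 0. This median is the value of the brightest probe set of BUB3, and with the median over the probe sets of each gene it was -0.15. BUB1, a checkpoint kinase at the kinetochore, had a signal of 5351 in the knock-down cells and 6858 in the control cells (log2 ratio -0.40). Its second probe set, 215509_s_at, gave 2646 in knock-down and 3433 in control cells (-0.42), so that both bright probe sets of BUB1 gave the same difference. Of its 2 dim probe sets above the filter, 1 was below 0 (-0.21) and 1 above (0.46). TTK, also called MPS1, is the kinase at the top of the checkpoint and had 3139 in knock-down and 3850.4 in control cells (-0.34). BUB1B, which encodes the inhibitor BUBR1, had 5584 in knock-down and 6002 in control cells (-0.15). TTK and BUB1B were measured by 1 probe set each.
The 2 remaining checkpoint genes had probe sets on both sides of 0. MAD2L1, whose product binds CDC20 and blocks it, had a signal of 8896 in knock-down and 8493 in control cells (log2 ratio 0.02), with -0.04 and -0.04 in its other probe sets. BUB3, the adaptor that brings BUB1 and BUB1B to the kinetochore, had 6965 in knock-down and 8418 in control cells (-0.32) in the brightest probe set 201457_x_at. The next, 209974_s_at, had 6531 in knock-down and 5429 in control cells (0.22), and the other 2 were at -0.03 and -0.03. With the median over the probe sets of BUB3 the log2 ratio was -0.03, and it was 0.04 for CDC25C and -0.07 for ESPL1.

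Genes of the metaphase to anaphase transition went in both directions. CDC20, the activator of the APC/C, had a signal of 1906 in the knock-down cells and 1516 in the control cells (log2 ratio 0.29). UBE2C, the ubiquitin-conjugating enzyme of the APC/C, had 4392 in knock-down and 4622 in control cells (-0.12). PTTG1, which encodes securin, had 6154 in knock-down and 5823 in control cells (0.03). Its probe set ends in _x_at, the mark of probes that can match other transcripts, and the genome holds near-identical copies of PTTG1. CDCA3, a substrate of the APC/C, had 1769.6 in knock-down and 1555 in control cells (0.14) and -0.07 in the other probe set.
ESPL1 encodes separase, the protease that cuts cohesin at anaphase, and its 2 probe sets disagreed. The signal of 38158_at was 1512 in knock-down and 1941 in control cells (log2 ratio -0.41), and that of 204817_at was 1668 in knock-down and 1346 in control cells (0.26). Neither direction can be given for this gene.

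In the kinetochore, subunits of one complex differed in direction. NDC80, NUF2, SPC25 and SPC24 form the NDC80 complex, which binds spindle microtubules. NDC80 had a signal of 2998 in the knock-down cells and 3913 in the control cells (log2 ratio -0.43), NUF2 had 3147 in knock-down and 2496 in control cells (0.29), and SPC25 had 1116 in knock-down and 1186 in control cells (-0.13). The log2 ratio of NUF2 was thus 0.72 above that of NDC80, a 1.65-fold difference between the ratios of 2 partners measured by 1 probe set each. SPC24, which was not in the list of 42, had a log2 ratio of -0.04. The difference between NUF2 and NDC80 was the largest among the pairs of partners compared, closely followed by that between PRC1 and KIF4A (0.70). The pairs were picked by hand, and the share of all gene pairs that differ as much was not computed. The gene of NDC80 is on chromosome 18 (a median of -0.31 over 170 genes) and that of NUF2 on chromosome 1 (0.08 over 1167 genes). Less these medians, NUF2 had 0.21 and NDC80 -0.12.
CENPA, the histone H3 variant that marks the centromere, showed the highest log2 ratio of the 42 genes. Its signal was 1077 in knock-down and 807 in control cells (log2 ratio 0.37) with 210821_x_at. A further probe set, which the annotation assigns to both CENPA and SLC35F6 and which was therefore left out, had 1840 in knock-down and 1616 in control cells (0.14). The motor CENPE, which moves chromosomes to the middle of the spindle, had 1508 in knock-down and 1583 in control cells (-0.11). CENPF, a large protein of the outer kinetochore, had 2157 in knock-down and 2215 in control cells (-0.08) and -0.02 in the other probe set.

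Of 6 kinesins, 5 had a log2 ratio below 0 with the brightest probe set, with a median of -0.15. Among all genes 51.0% were below 0. Using the median over the probe sets of each gene, 4 of the 6 were below 0 and their median was -0.16. KIF4A, a motor that goes to chromosome arms and to the central spindle, showed the lowest ratio of the 42 genes, with a signal of 2277 in the knock-down cells and 3061 in the control cells (-0.47). KIF20A, a motor of cytokinesis, had 1009 in knock-down and 1233 in control cells (-0.33). Both were measured by 1 probe set. KIF11, the motor that pushes the spindle poles apart, had 3288 in knock-down and 3529.9 in control cells (-0.15).
With their brightest probe sets the other 3 kinesins, like KIF11, differed by less than 1.25-fold. KIF2C, which shortens microtubules at the centromere, had 3625 in knock-down and 3829 in control cells (-0.12) and -0.21 in its other probe set. KIF23, a subunit of the centralspindlin complex, had 1594 in knock-down and 1706 in control cells (-0.14), but the dim probe set 244427_at had 175 in knock-down and 127 in control cells (0.42). KIF14, a kinesin of late cytokinesis, was the one whose brightest probe set lay above 0. It had 2665 in knock-down and 2263 in control cells (0.19) and 0.07 in the second probe set.

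The microtubule-binding proteins of the spindle had a median of 0.21 over 5 genes, the value of the brightest probe set of NUSAP1, and of 0.06 with the median over the probe sets of each gene. ASPM, a protein of the spindle poles, was higher in all 3 probe sets. The signal of 219918_s_at was 6637 in the knock-down cells and 5142 in the control cells (log2 ratio 0.32), that of 232238_at was 777 in knock-down and 475 in control cells (0.67), and that of 239002_at was 397 in knock-down and 223 in control cells (0.78). These last 2 were the only ones of the 69 member probe sets above the filter to pass 1.5-fold, and ASPM was the only one of 18 genes with several such probe sets in which each differed by at least 1.25-fold in one direction. The signal of ASPM was thus higher in the knock-down cells with every probe set, but the size of the difference depended on the probe set. Of all genes, 7.54% were at least 1.5-fold higher with their brightest probe set. Shares over all probe sets were not computed, so the counts for ASPM do not set it apart.
PRC1, which bundles microtubules in the central spindle and recruits KIF4A there, had 4223 in knock-down and 3485 in control cells (log2 ratio 0.23). It lay 0.70 above KIF4A. NUSAP1, a protein that stabilizes spindle microtubules, had 12267 in knock-down and 10279 in control cells (0.21) and -0.09 in the other probe set. TPX2, which activates AURKA on the spindle, had 5161 in knock-down and 6059 in control cells (-0.28), close to the brightest probe set of AURKA. DLGAP5, also called HURP, had 3178 in knock-down and 3226 in control cells (-0.07).
FOXM1, the transcription factor that drives many of these genes in G2, had the second lowest ratio, with a signal of 1935 in the knock-down cells and 2579 in the control cells (log2 ratio -0.46). It was measured by 1 probe set, which ends in _x_at. MYBL2, which encodes B-MYB and was not in the list of 42, had 1199 in knock-down and 1006 in control cells (0.21).

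**Figure D3:**
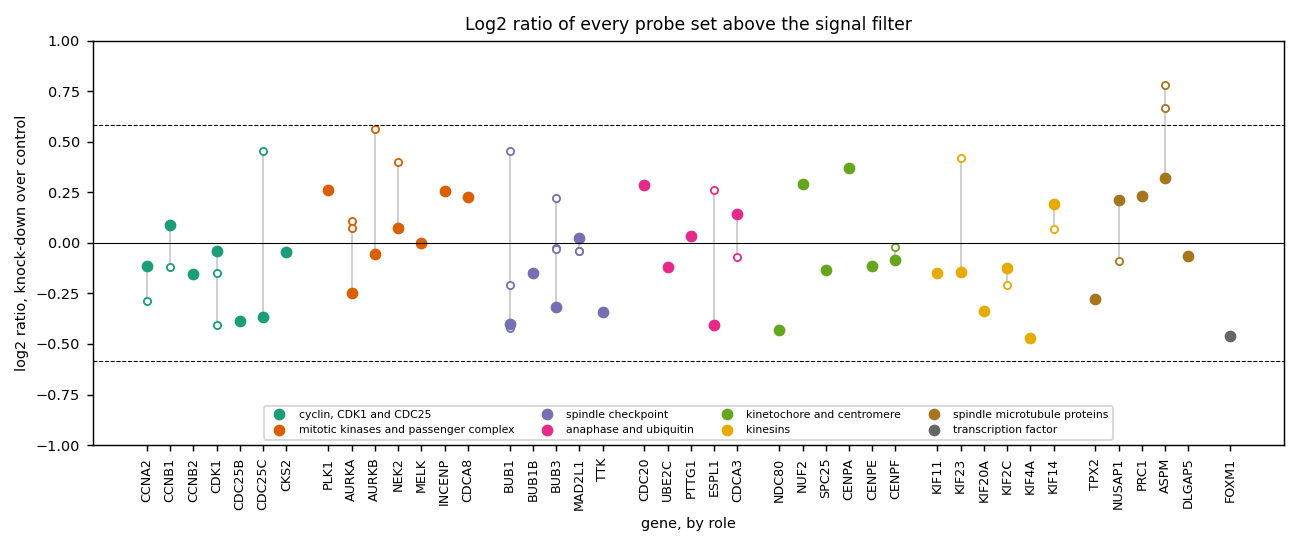
Log2 ratio of knock-down over control cells (vertical axis) for each probe set above the signal filter of the 42 genes, grouped and colored by role, 1 array per condition. Filled points are the brightest probe set of a gene, open points its others, and dashed lines stand at 1.5-fold; the 2 points above the upper line belong to ASPM.

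Different probe sets of one gene gave the only estimate of error within these arrays. Of the 42 genes, 24 had 1 probe set above the filter and 18 had several. Of these 18, all probe sets of CCNA2, CDK1, KIF2C and CENPF were below 0, and all probe sets of NEK2, KIF14 and ASPM were above 0. In the other 11 genes they lay on both sides of 0. The pooled SD between probe sets of one gene was 0.27 on the log2 scale for these 18 genes and 0.33 for 5840 genes with several probe sets. This SD measures the spread between probes, not between cultures. In 27 of the 42 genes the log2 ratio of the brightest probe set was smaller in size than 0.27. The median size of the log2 ratio was 0.20 for the 42 genes and 0.23 for all genes. Shares over all genes were not computed for this count or for probe sets on both sides of 0. Neither count thus sets these genes apart.

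Several of these ratios lay on the same side of 0 as the other genes of their chromosome. With their brightest probe sets all 4 mitotic genes on chromosome 20 had a log2 ratio below 0, from -0.39 for CDC25B to -0.12 for UBE2C, with -0.28 for TPX2 and -0.25 for AURKA, whose 2 other probe sets were above 0. The 327 measured genes of chromosome 20 had a median of -0.17. On chromosome 5, with a median of -0.16 over 526 genes, the brightest probe sets of CDC25C and KIF20A were below this median and those of CCNB1 and PTTG1 above 0. Of 8 genes on chromosome 1, 6 were above 0, namely ASPM, NUF2, CDC20, CDCA8, KIF14 and NEK2, and KIF2C and CENPF were below. Their median was 0.21, against 0.08 for the 1167 genes of this chromosome. KIF4A on chromosome X and FOXM1 on chromosome 12 lie on chromosomes with medians of -0.01 and 0.08.
After subtraction of the median of its chromosome, NDC80 had a value of -0.12, CDC25B of -0.22 and CDC25C of -0.21. FOXM1 was then lowest (-0.54), followed by ESPL1 (-0.48) and KIF4A (-0.47), and CENPA was highest (0.36). These are values of the brightest probe sets, and that of ESPL1 is opposed by its other probe set. In this setting 37 of the 42 genes were within 1.25-fold, against 31 without it, and the median was -0.05. The share of all genes within 1.25-fold was not computed in this setting, so the rise does not set the 42 genes apart. The part of the chromosomes in these values was not tested further.

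**Figure D4:**
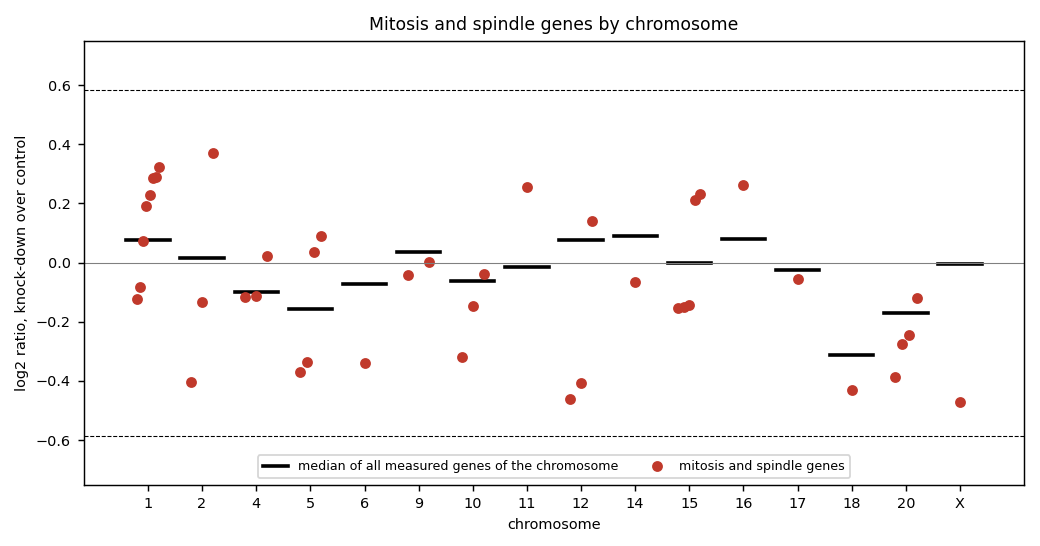
Log2 ratio of knock-down over control cells (vertical axis) of the 42 mitosis and spindle genes by chromosome (horizontal axis), 1 array per condition; red points are spread sideways only to keep them apart. Black bars are the medians of all measured genes of a chromosome, -0.31 for chromosome 18 and -0.17 for chromosome 20, and dashed lines stand at 1.5-fold.

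Other mitotic genes were read from 6 further lists with 128 genes, of which 122 were measured. Of these 122, 8 were lower by 1.5-fold or more (the background was 5.42% of all genes) and 2 were higher by as much (7.54%), with a median log2 ratio of -0.07. Among 16 subunits and regulators of the APC/C, CDC27 was at least 1.5-fold lower, with a signal of 2009.7 in the knock-down cells and 3311 in the control cells (-0.77), but its 4 probe sets ranged from -0.77 to -0.03. Among 15 genes of cohesin, the ring that holds sister chromatids together, the core subunit SMC3 had 3630.2 in knock-down and 5939 in control cells (-0.76), with a range up to 0.05 over 4 probe sets. The acetyltransferase ESCO1 had 1377 in knock-down and 2072 in control cells (-0.63), with -0.33 as the highest of 3 probe sets. Condensin, which compacts mitotic chromosomes, had a median of -0.21 over 8 genes, with 6 below 0 and none past 1.5-fold.
Among 29 other kinetochore genes, MIS18A and SKA1 were at least 1.5-fold lower and MAD1L1 higher. MIS18A, which helps to load CENPA at the centromere, had 1115 in knock-down and 1976 in control cells (-0.87), with 3 probe sets between -0.87 and -0.29, so that it lay on the other side of 0 from CENPA. SKA1, a microtubule coupler, had 779 in knock-down and 1203 in control cells (-0.67). MAD1L1, the checkpoint partner of MAD2L1, had 352 in knock-down and 219 in control cells (0.64).
Among 26 genes of the spindle and of cytokinesis, KIF18A (-0.74), HAUS1 (-0.60) and CHMP4B (-0.59) were at least 1.5-fold lower, and TACC3, a spindle pole protein, was higher, with 1329 in knock-down and 805 in control cells (0.68). None of 28 other mitotic regulators passed 1.5-fold, and their median was 0.07. They include the proliferation marker MKI67 with 2695 in knock-down and 3251 in control cells (-0.32, with 4 probe sets from -0.32 to 0.04) and TOP2A with 11324 in knock-down and 11280.1 in control cells (-0.04). ESCO1, SKA1 and HAUS1 lie on chromosome 18 and CHMP4B on chromosome 20. SKA1, MAD1L1, KIF18A, HAUS1 and TACC3 were measured by 1 probe set each, and that of SKA1 ends in _x_at.
DNA replication genes, the genes of the preceding S phase, had a similar median of -0.12 over 44 genes, and 28 of them (63.6%) had a ratio below 0. RPA2, a subunit of the single-strand binding protein, was at least 1.5-fold lower with 2332 in knock-down and 3435 in control cells (-0.60), and ORC6, a subunit of the origin recognition complex, was at least 1.5-fold higher with 3199 in knock-down and 1896 in control cells (0.71). Each was measured by 1 probe set, and that of ORC6 ends in _x_at. The difference between the medians of both lists was not tested.

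**Figure D5:**
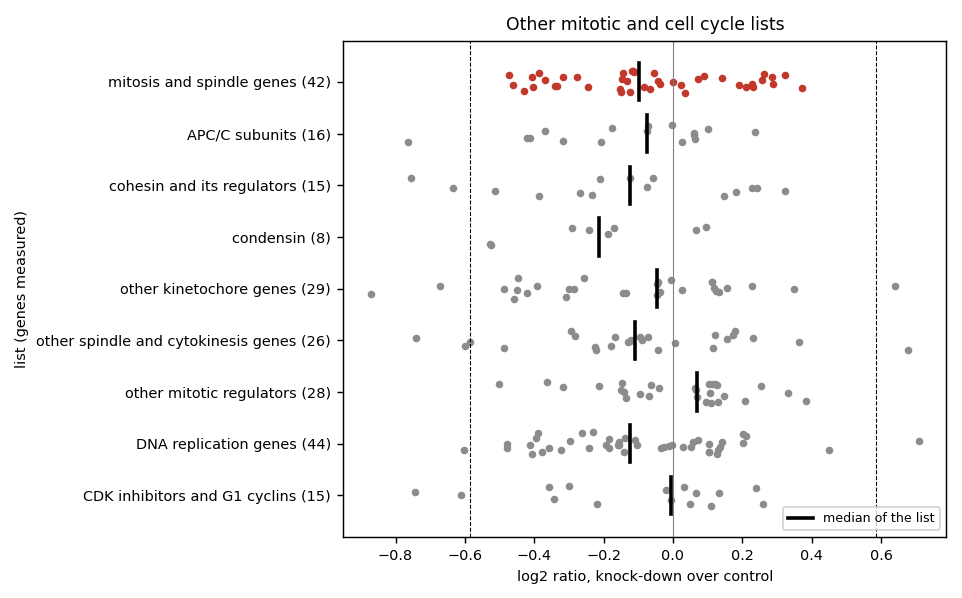
Log2 ratio of knock-down over control cells (horizontal axis) of each measured gene in the mitosis and spindle list (red) and in 8 other lists (grey), 1 array per condition, number of measured genes in brackets; points are spread vertically only to keep them apart. Black bars are medians, from -0.21 for condensin to 0.07 for other mitotic regulators, and dashed lines stand at 1.5-fold.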

How the data were processed

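Total RNA from the knock-down and from the control cells was hybridized to 1 Affymetrix HG_U133PLUS2.0 array each. The intensities deposited by the authors are MAS5 signals (expression console 1.1, linear scale, 54675 probe sets), scaled to one trimmed mean. RMA values, detection calls and hybridization batches were not analyzed here.

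After removal of 62 control probe sets, the signals were log2-transformed with no offset. The filter kept the 27307 probe sets whose mean log2 signal reached the median of all (97.7 on the linear scale), and their median log2 ratio of 0.045 was subtracted. By the platform annotation 41091 probe sets had 1 gene symbol and 1801 had several. Of the 41091, 41037 were found in RefSeq (GRCh38.p14), which was used for current symbols, chromosomes and promoters. The files name no genome build.

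The 42 genes and all lists were chosen with earlier results of these data known. Named genes are all 42, PRAME, and of each other list up to 4 genes past 1.5-fold with the largest ratios. BIRC5, SPC24, MYBL2, MKI67, TOP2A, CDKN1B, the markers and the 8 printed promoters were picked beyond this rule. Scripts were tested on simulated data. The versions were 3.11.15 for Python, 2.4.6 for numpy, 2.3.3 for pandas, 0.14.6 for statsmodels and 3.10.9 for matplotlib. As alternatives, the ratios were left without centering, quantile normalized, or corrected with a loess curve (span 0.4), 64 was added to the signals, the filter was dropped or set at the 75th percentile, genes were given the median of their probe sets, and probe sets that end in _s_at, _x_at or _a_at were removed.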

Additional observations from a re-analysis of the deposited data

How the results depend on the processing

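The median log2 ratio of the 42 genes stayed below 0 in all 10 alternatives, between -0.19 without a filter and -0.03 after quantile normalization or subtraction of the loess curve, in which 22 and 23 of the 42 genes had a ratio below 0. No gene was at least 1.5-fold lower in any of them. One gene, ASPM, was at least 1.5-fold higher with the median over probe sets and without the endings _s_at, _x_at and _a_at (1 in each, log2 ratio 0.67). In these settings 7.12% and 8.05% of all genes were higher by as much. Removal of these endings left 30 of the 42 genes. Of 406 values of single genes, 5 moved by more than the spread between probe sets of 0.33. Many of these values could not move that far. Leaving out the centering or changing the filter shifts all genes by one amount, and the median over probe sets leaves genes with 1 probe set unchanged. The count is thus no measure of stability. Signs held for 28 genes, 17 below and 11 above 0, in every alternative that kept the gene. They changed in at least 1 for the others, among them CCNB1, AURKA and AURKB. The 28 include BUB1, BUB3, ESPL1, CDCA3 and NUSAP1, whose probe sets lay on both sides of 0, so that a held sign does not settle a direction. Over all genes, counts at 1.5-fold moved from 639 lower and 889 higher to 2331 and 3480 without a filter, 273 and 254 with the filter at the 75th percentile, and 468 and 490 with the offset of 64. Subtraction of chromosome medians and the probe set shared by CENPA and SLC35F6 were chosen after seeing the data. No paired analysis was possible because there was 1 array per condition, and for the same reason no array could be left out. The number of arrays limits the precision.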

Other observations

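Regulators of the G1 phase, which precedes the processes described above, were read from a list of CDK inhibitors, G1 cyclins and their kinases, of which 15 of 17 genes were measured. Their median log2 ratio was -0.01, with 8 below 0. CDKN1A, which encodes the CDK inhibitor p21, was at least 1.5-fold lower, with a signal of 205 in the PRAME knock-down cells and 333 in the control cells (-0.74). E2F1, a transcription factor of S phase genes, had 674 in knock-down and 998 in control cells (-0.61), with -0.35 in its other probe set. E2F1 lies on chromosome 20, whose genes had a median of -0.17. At 1.5-fold 2 of the 15 genes were thus lower, against 5.42% of all genes, and none was higher, against 7.54%. CDKN1B, the gene of the CDK inhibitor p27, had 7653 in knock-down and 7444 in control cells (-0.01). CDKN1A was measured by 1 probe set.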
